A study of Mus musculus with 13 samples.

Results

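The nuclear genome encodes nearly all subunits of the oxidative phosphorylation machinery, and their transcripts were followed here in S1 segments of the mouse proximal tubule. Members were all genes whose symbol begins with Nduf, Uqcr, Atp5, Cox4, Cox5, Cox6, Cox7 or Cox8, together with Sdha, Sdhb, Sdhc, Sdhd and Cyc1. Pseudogene symbols and probe sets that carry several symbols were left out, and the probe set with the highest mean was kept for each gene. The rule gave 88 members among 22180 genes measured: 32 subunits of complex I, 8 complex I assembly factors, 4 genes of complex II, 8 of complex III, 17 of complex IV and 17 of complex V. The last 2 members, Ndufa4l2 and Cox7a2l, carry the prefixes but were assigned to no complex. Ndufa4 was counted with complex IV, where its protein is now placed.

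Gene expression was measured on 13 Affymetrix whole-transcript arrays, all of S1 segments from male C57Bl/6J mice. In the LPS/LPS group, with 5 arrays, mice were given 0.25 mg/kg of lipopolysaccharide (LPS, an endotoxin of bacterial outer membranes) and, 24 h later, a challenge of 5 mg/kg. In the LPS group, with 4 arrays, mice received the challenge of 5 mg/kg alone, given intraperitoneally. Both groups were studied 24 h after the challenge. The control group, with 4 arrays, received saline. No transgene, deletion or other genetic change is named for any group. Whether the arrays stem from different mice is not stated in the labels, so the p-values below describe the spread among these arrays, part of which may be technical.

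Oxidative phosphorylation takes place in the inner mitochondrial membrane. Complexes I and II pass electrons from NADH and succinate to ubiquinone, complex III hands them on to cytochrome c, and complex IV transfers them to oxygen. The proton gradient built by complexes I, III and IV drives complex V, the ATP synthase. The proximal tubule is among the tissues richest in mitochondria, because its reabsorption of sodium and solutes is paid for almost wholly by this pathway.

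The values are log2 expression levels per probe set. Levels of different genes are set against each other only through the background reference below and to rank members of a complex by level. A background reference was taken from olfactory receptor genes, a family held here to be mostly silent in the tubule: the 95th percentile of their mean levels lay at 4.77, and 9.95% of all genes had a mean above it. Of the 88 members, 34 lay above the reference. They comprised 12 of 32 complex I subunits, 3 of 4 genes of complex II, 3 of 8 of complex III, 5 of 17 of complex IV, 10 of 17 of complex V, 0 of 8 assembly factors, and Cox7a2l. Among markers of the S1 and S2 segments, 9 of 17 were above the reference, and Slc34a1, the main phosphate transporter of the early proximal tubule, averaged 9.23 ± 0.73 in LPS/LPS arrays (SD, n = 5), 10.04 ± 0.64 in LPS arrays and 11.23 ± 0.23 in control arrays (SD, n = 4 each). Slc5a2, the S1 glucose transporter, stayed below the reference on all 13 arrays. Of markers of other cells, 2 of 7 for the S3 segment, 1 of 12 for later nephron segments (loop of Henle, distal tubule and collecting duct), 0 of 5 for podocytes and 1 of 9 for endothelium were above it. So were 2 of 9 for fibroblasts and mural cells, 1 of 12 for macrophages and monocytes and 1 of 10 for neutrophils and lymphocytes.

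LPS replicate 3 stood apart in this gene group. For each array, the difference of every member from its control mean was taken, and the median over the 88 members was 0.99 in LPS replicate 3. The same median ran from -0.56 to -0.14 over the 5 LPS/LPS arrays, from -0.22 to -0.06 over the other 3 LPS arrays and from -0.19 to 0.11 over the 4 control arrays. LPS replicate 3 gave the highest of the 13 values for 55 members, or 62.5%, against 8.90% of all genes and 12.7% of the 2173 other genes above the background reference. It was highest for 23 of 32 complex I subunits, 3 of 4 genes of complex II, 7 of 8 of complex III, 9 of 17 each of complexes IV and V, and 3 of 8 assembly factors. At the other end, LPS/LPS replicate 5 gave the lowest value for 24 members, or 27.3%, against 12% of all genes and 17.1% of the other genes above the reference. The median difference from the control mean on that array was -0.56 for the members and -0.12 for those other genes.

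On LPS replicate 3 the other genes above the background reference had a median difference of -0.05 from the control mean. The median of the 17 S1 and S2 markers was 0.06 above the control mean in LPS replicate 3 and between -0.60 and 0.22 on the other 12 arrays. Their median level there, 6.00, was the highest of all arrays. Medians of the markers of other tubule segments were high on LPS replicate 3 too. The median of the 12 markers of these later segments was 0.65 above the control mean in LPS replicate 3 and lay between -0.08 and 0.27 on the other 12 arrays. The count of these markers above the control mean did not set the array apart, at 9 of 12 there and 4 to 9 on the others. The median of the 7 S3 markers was 0.48 above the control mean in LPS replicate 3 and between -0.37 and 0.14 on the other arrays. Umod, the uromodulin gene of the thick ascending limb, was at 5.60, 4.76, 4.90, 4.44 and 4.41 in LPS/LPS arrays, 4.88, 5.01, 8.36 and 4.36 in LPS arrays and 6.77, 4.28, 4.30 and 5.10 in control arrays. Slc12a1, the sodium-potassium-chloride transporter of the same segment, was at 3.24, 3.76, 4.20, 3.56 and 3.76 in LPS/LPS arrays, 3.72, 3.87, 6.79 and 3.71 in LPS arrays and 4.02, 3.74, 3.94 and 3.49 in control arrays. Umod was thus highest in LPS replicate 3 and next highest in control replicate 1, and Slc12a1 was high in LPS replicate 3 alone. The median level of that list was 4.04 to 4.35 on LPS/LPS arrays, 3.94 to 4.85 on LPS arrays and 3.96 to 4.16 on control arrays. Whether these segments contributed to the member values was not tested. Differences that use the LPS group are therefore given with and without replicate 3.

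**Figure D1:**
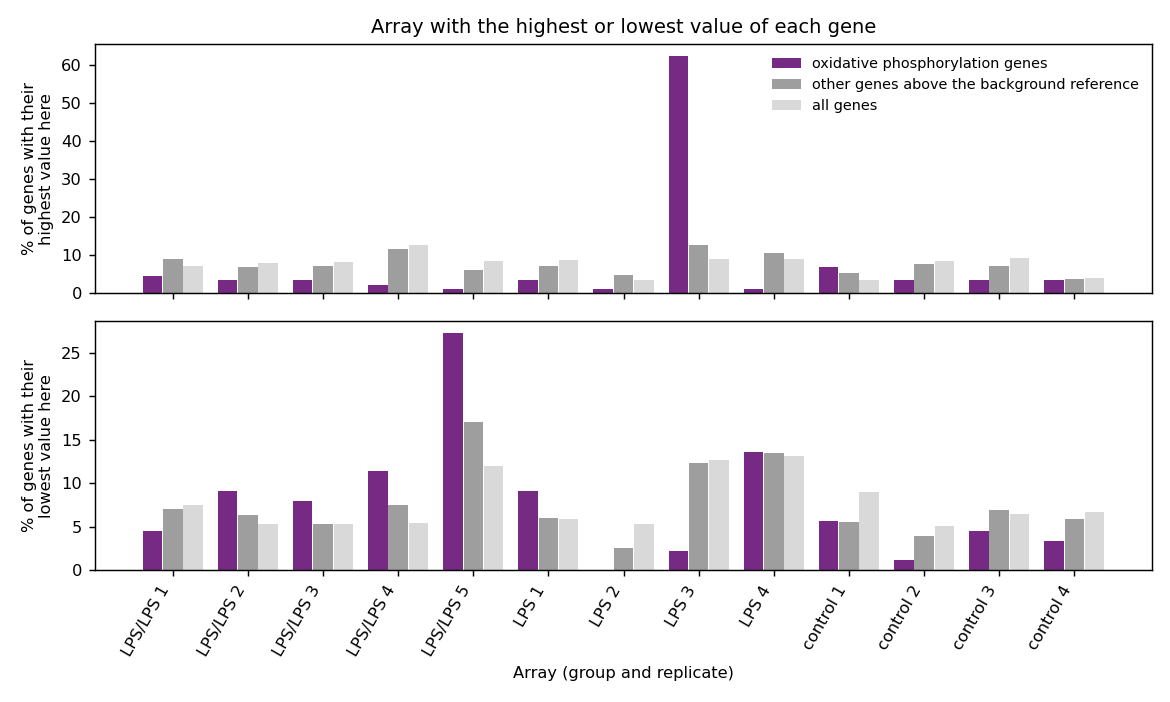
Share of genes (in %) whose highest value (upper panel) or lowest value (lower panel) over the 13 arrays fell on each array, with LPS/LPS arrays on the left, LPS arrays in the middle and control arrays on the right. Purple bars are the 88 oxidative phosphorylation genes, dark grey bars the other genes above the background reference and light grey bars all genes; LPS replicate 3 holds 62.5% of the highest member values and LPS/LPS replicate 5 holds 27.3% of the lowest.

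The first comparison asked how S1 segments given the small dose before the challenge differed from saline controls. No member passed the threshold: 0 of 88 had a limma adjusted p under 0.05, against 0.00902% of all genes (2 of 22180), and the count was also 0 with limma's array weights and with its trended, robust variance. The direction was uneven, with 71 of 88 members (80.7%) at a lower mean level in LPS/LPS arrays, against 44.2% of all genes, and a median difference of -0.30, against 0.03 over all genes. At an unadjusted p under 0.05, 7 members were lower and 1 was higher, 7.95% and 1.14% of the members, where 2.07% and 2.62% of all genes did so. The lower count depended on single arrays. It was 2 without control replicate 1 (against 509 of 22180 genes) and 4 without LPS/LPS replicate 5 (against 396). It was 11 without LPS/LPS replicate 1 (against 435) and 14 without control replicate 3 (against 433). It was 15 (17%, against 2.35% of all genes) without LPS replicate 3, which enters this comparison through the shared variance, with 1 member (1.14%, against 2.82%) higher. In bulk segments, fewer cells of a type and less RNA per cell cannot be told apart.

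The second comparison set LPS/LPS against LPS alone, the test of what the earlier small dose adds. Again 0 of 88 members passed, against 0.0631% of all genes (14 of 22180). Here 70 of 88 members (79.5%) had a lower mean in LPS/LPS arrays, against 40.7% of all genes, and the median difference was -0.43, against 0.05. At an unadjusted p under 0.05, 16 members (18.2%) were lower and 0 were higher, where 4.49% and 4.13% of all genes were. Without LPS replicate 3 the median member difference was -0.13, and 55 members (62.5%) had a lower mean, against 43% of all genes. The count at an unadjusted p under 0.05 was then 5 lower (5.68%, against 3.49% of all genes) and 0 higher (against 2.67%). It was 28 lower without LPS replicate 1 (against 1270 of 22180 genes) and 25 without LPS replicate 4 (against 897).

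The third comparison, LPS against control, also had 0 of 88 members past the threshold, as had 0% of all genes. Its median member difference was 0.12, against -0.02 over all genes, with 58 members at a higher and 30 at a lower mean in LPS arrays. The sign of this median rested on 1 array, and without LPS replicate 3 it was -0.19, with 31 members at a higher and 57 at a lower mean. Without control replicate 3 it was 0.04. At an unadjusted p under 0.05, 3 members were lower and 0 higher, where 2.95% and 3.49% of all genes were. The same counts, 3 and 0, came without LPS replicate 3, against 2.43% and 3.38% of all genes. The 3 comparisons share arrays pairwise, so their directions are not independent of each other.

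The differences of the LPS/LPS group from control and from LPS also moved with the spread of the arrays. Arrays were split by the SD of their log2 values over genes into 7 wide and 6 narrow ones, and 4 of the 5 LPS/LPS arrays were narrow against 1 of 4 control arrays. The median member difference of LPS/LPS from control was -0.20 within the wide arrays, which include 1 LPS/LPS array, and -0.02 within the narrow arrays, which include 1 control array. With the spread class as a block in the fit it was -0.13. A lower mean in LPS/LPS was then seen for 58 of 88 members, against 60 when only wide arrays were used and 49 when only narrow ones were. These were 65.9%, 68.2% and 55.7% of the members, against 50.3%, 50.4% and 49.3% of all genes. With the spread block, 2 members were lower and 2 higher at an unadjusted p under 0.05, against 794 and 595 of 22180 genes. In LPS/LPS against LPS, LPS replicate 1 was the only narrow LPS array. The median member difference there was -0.34 within the wide arrays, -0.09 within the narrow arrays and -0.22 with the block, against -0.43 in the main fit. With the block, 4 members were lower and 2 higher at an unadjusted p under 0.05, against 742 and 630 of 22180 genes. Of the markers of the S1 and S2 segments, 16 of 17 had a lower mean in LPS/LPS than in control arrays, with a median difference of -0.48, and 0 passed the threshold. Their median level was 4.08 to 4.70 on LPS/LPS arrays, 4.22 to 6.00 on LPS arrays and 4.73 to 5.33 on control arrays. Endothelial markers had the other direction, with 9 of 9 at a higher mean in LPS/LPS than in control arrays, a median difference of 0.21 and 0 past the threshold. In LPS against control 9 of 9 were also higher, with a median of 0.18, or 0.23 without LPS replicate 3. The median level of this list was 3.94 to 4.17 on LPS/LPS arrays, 3.95 to 4.41 on LPS arrays and 3.82 to 4.28 on control arrays. In LPS/LPS against control, 9 of 12 macrophage and monocyte markers were also higher (median 0.12), as were 7 of 9 for fibroblasts and mural cells (0.05). Higher too were 7 of 12 for later segments (0.10), 3 of 5 for podocytes (0.07), 5 of 10 for neutrophils and lymphocytes (0.01) and 3 of 7 for S3 (-0.06). Over all genes, 12375 of 22180 were higher. The part of cell make-up or array spread in the member differences was not tested further.

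**Figure D2:**
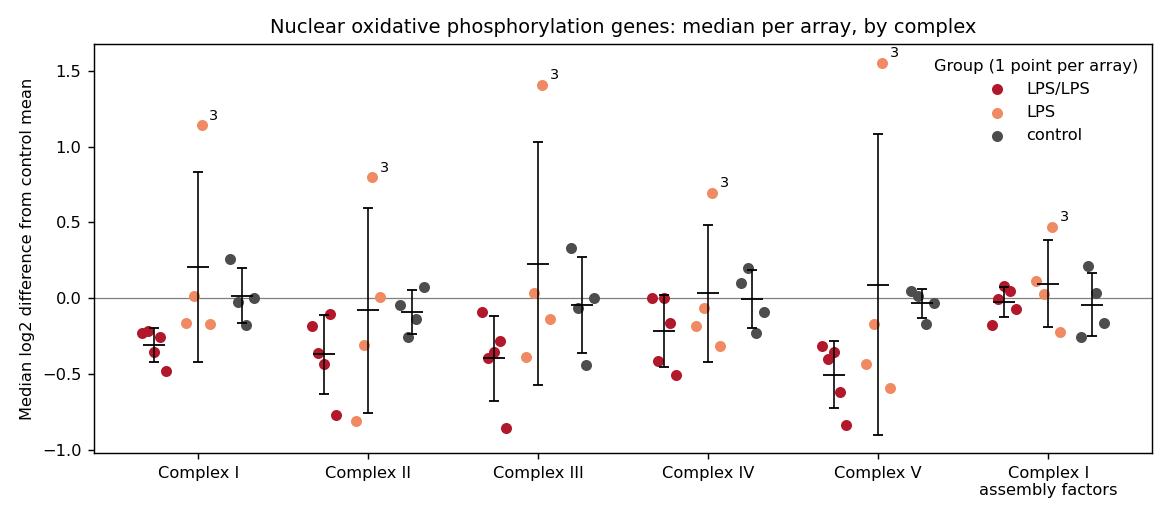
Median log2 difference from the control mean over the members of each complex, 1 point per array, with LPS/LPS in red, LPS in orange and control in grey and black bars for the mean ± SD over arrays. LPS replicate 3, marked 3, is the highest array in all 6 gene sets, and the 5 LPS/LPS arrays lie below 0 for complexes I, II, III and V.

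The medians by complex are descriptions, whose order was not tested, and the arrays spread widely. In LPS/LPS against control, the median difference was -0.39 for complex I, -0.28 for complex II, -0.40 for complex III, -0.21 for complex IV and -0.43 for complex V, with 0.09 for the complex I assembly factors. A lower mean in LPS/LPS was seen for 29 of 32 complex I subunits, 4 of 4 genes of complex II, 8 of 8 of complex III, 12 of 17 of complex IV and 13 of 17 of complex V. The assembly factors gave 3 of 8. Single arrays moved some of these medians. That of complex III was -0.13 without control replicate 1, that of complex IV -0.11 without LPS/LPS replicate 2 and -0.36 without LPS/LPS replicate 3, and that of complex V -0.21 without LPS/LPS replicate 5.

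The medians of LPS/LPS against control also differed by array spread. Within the narrow arrays they were -0.0055, -0.22, 0.07, -0.06 and -0.14 for complexes I to V, and within the wide arrays -0.28, -0.14, -0.15, 0.07 and -0.33. With the spread class as a block they were -0.15, -0.19, -0.05, -0.0016 and -0.14. The complex III median thus had the opposite sign within the narrow arrays, and that of complex IV within the wide arrays.

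In LPS/LPS against LPS, the medians were -0.55, -0.49, -0.75, -0.27 and -0.55 for complexes I to V and -0.02 for the assembly factors. Without LPS replicate 3 these became -0.24, -0.14, -0.27, -0.05 and -0.10, and 0.13 for the assembly factors. The most negative medians came without LPS replicate 1 for complexes II and III, at -0.79 and -1.01, and without LPS replicate 4 for complexes I, IV and V, at -0.75, -0.46 and -0.88. Without LPS/LPS replicate 5 the complex V median was -0.26. Within the narrow arrays the medians were -0.14, 0.23, -0.15, -0.0072 and -0.18 for complexes I to V. Within the wide arrays they were -0.63, -0.54, -0.43, 0.0049 and -0.63. With the spread class as a block they were -0.32, -0.06, -0.36, -0.16 and -0.19.

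For LPS against control, complex medians were 0.20, -0.02, 0.29, 0.10 and 0.04 for complexes I to V and 0.00 for the assembly factors. Leaving out LPS replicate 3 gave -0.12, -0.28, -0.10, -0.25 and -0.32, and -0.07. All 5 complexes thus lay below the control with the other 3 LPS arrays, whereas with all 4 arrays complex II alone did. Other arrays changed signs too: the complex II median was 0.24 without LPS replicate 1, and that of complex V was -0.14 without control replicate 3. None of these medians carries a test.

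**Figure D3:**
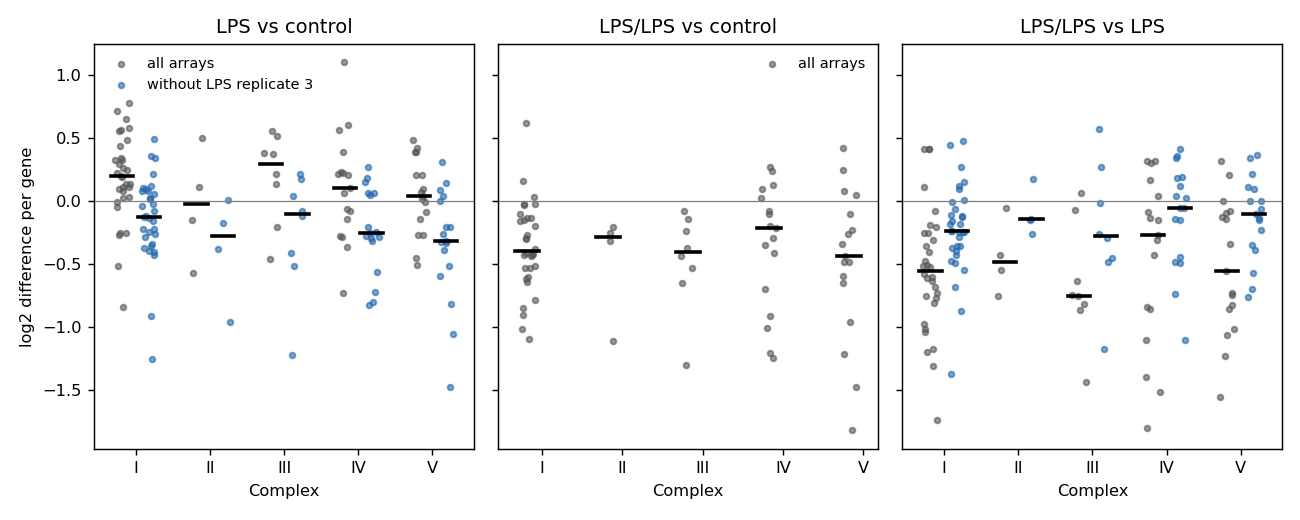
Log2 difference of each member, by complex, in the 3 comparisons; each point is 1 gene and each black line a median. Grey points use all arrays and blue points leave out LPS replicate 3, and the complex III median is 0.29 with it and -0.10 without it in LPS vs control, and -0.75 and -0.27 in LPS/LPS vs LPS.

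Uqcrh, the hinge protein of complex III that helps cytochrome c1 meet cytochrome c, had the lowest p of all members in both comparisons of the LPS/LPS group. Its log2 level was 3.81, 3.58, 3.54, 2.39 and 3.38 in LPS/LPS arrays, 4.15, 4.91, 5.56 and 4.48 in LPS arrays and 4.80, 4.90, 4.28 and 4.57 in control arrays. All 5 LPS/LPS arrays lay below all arrays of the other groups. The difference was -1.30 (SE 0.30; limma adjusted p = 0.703) from control and -1.44 (SE 0.30; limma adjusted p = 0.122) from LPS. The difference from LPS was -1.18 without LPS replicate 3. Its mean level over all arrays lay below the background reference, where array values can be compressed.

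Groups without overlap were few. In LPS/LPS against control, 3 members had all 5 LPS/LPS arrays below all 4 control arrays (Uqcrh, Cox6b1 and Ndufv2), or 3.41%, against 0.699% of all genes, and 0 lay above, against 0.839%. In LPS/LPS against LPS, 3 members lay below (Uqcrh, Ndufa2 and Cox6b1), against 1.3% of all genes, and 0 above, against 1.1%. In LPS against control, 0 members were separated in either direction, where 1.6% of all genes were lower and 1.55% higher without overlap. Without LPS replicate 3 the same 3 members lay below in LPS/LPS against LPS (against 1.95% of all genes) and 0 above (against 1.73%). In LPS against control, Cox6b1, Cox7c and Uqcr11 were then lower without overlap, or 3.41% of the members (against 2.71% of all genes), and 0 were higher (against 3.07%).

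Cox6b1, a subunit on the outer face of cytochrome c oxidase, was at 3.96, 4.05, 3.90, 3.36 and 2.71 in LPS/LPS arrays, 4.17, 4.52, 6.98 and 4.29 in LPS arrays and 4.71, 4.54, 4.53 and 4.63 in control arrays. The control arrays were tight and LPS replicate 3 was far above everything else. The difference of LPS/LPS from control was -1.01 (SE 0.47; limma adjusted p = 0.987), and from LPS it was -1.40 (SE 0.47; limma adjusted p = 0.431), or -0.73 without LPS replicate 3.

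Ndufv2, an iron-sulfur core subunit of the NADH-oxidising tip of complex I, was at 4.86, 4.84, 3.65, 4.40 and 4.85 in LPS/LPS arrays, 4.78, 5.22, 7.13 and 4.86 in LPS arrays and 4.92, 4.95, 4.99 and 4.88 in control arrays. LPS/LPS replicates 1, 2 and 5 came close to the lowest control array, so the separation is narrow. The difference of LPS/LPS from control was -0.41 (SE 0.40; limma adjusted p = 0.987).

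**Figure D4:**
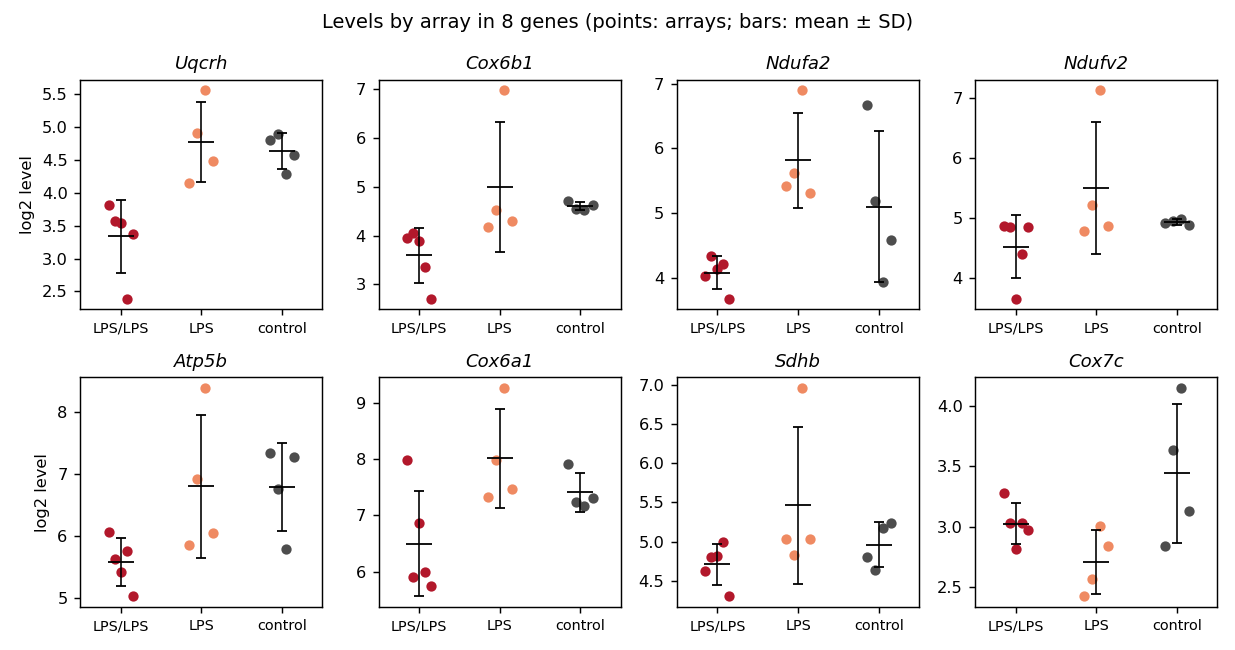
Log2 levels of 8 members by array (points), with LPS/LPS on the left, LPS in the middle and control on the right of each panel, and the mean ± SD of each group as black bars. The 5 LPS/LPS arrays of Uqcrh and Cox6b1 lie below all control and LPS arrays, and LPS replicate 3 is the highest array for every gene shown except Cox7c.

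The starts of the 3 genes separated from control, and of Cox6a1, are shown with the motifs of factors known to control respiratory genes; Cox6a1 was added as a window that holds 2 kinds of them. Each window holds 250 bases before and 50 after the annotated start, from RefSeq on GRCm38.p6, printed 5′ to 3′ along the gene. Capitals mark the motifs searched.
Uqcrh (chr4:116075021-116075320, minus strand): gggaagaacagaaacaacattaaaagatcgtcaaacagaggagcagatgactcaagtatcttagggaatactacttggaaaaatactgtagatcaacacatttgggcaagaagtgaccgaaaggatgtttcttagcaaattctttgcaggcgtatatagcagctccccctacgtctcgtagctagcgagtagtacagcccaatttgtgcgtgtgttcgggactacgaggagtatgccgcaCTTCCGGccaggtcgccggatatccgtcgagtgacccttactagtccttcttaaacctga
Cox6b1 (chr7:30626065-30626364, minus strand): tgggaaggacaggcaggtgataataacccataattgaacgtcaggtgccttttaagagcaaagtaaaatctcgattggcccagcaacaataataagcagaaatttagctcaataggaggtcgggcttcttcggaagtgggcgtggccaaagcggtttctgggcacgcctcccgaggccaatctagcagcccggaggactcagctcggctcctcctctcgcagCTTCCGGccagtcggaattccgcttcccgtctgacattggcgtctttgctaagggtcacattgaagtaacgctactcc
Ndufv2 (chr17:66101510-66101809, minus strand): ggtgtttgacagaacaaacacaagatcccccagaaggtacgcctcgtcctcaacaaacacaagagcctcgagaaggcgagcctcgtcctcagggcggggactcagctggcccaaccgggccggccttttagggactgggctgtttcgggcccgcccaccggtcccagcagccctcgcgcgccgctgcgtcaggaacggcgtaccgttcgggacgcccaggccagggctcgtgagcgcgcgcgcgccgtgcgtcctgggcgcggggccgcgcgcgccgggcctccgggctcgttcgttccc
Cox6a1 (chr5:115348909-115349208, minus strand): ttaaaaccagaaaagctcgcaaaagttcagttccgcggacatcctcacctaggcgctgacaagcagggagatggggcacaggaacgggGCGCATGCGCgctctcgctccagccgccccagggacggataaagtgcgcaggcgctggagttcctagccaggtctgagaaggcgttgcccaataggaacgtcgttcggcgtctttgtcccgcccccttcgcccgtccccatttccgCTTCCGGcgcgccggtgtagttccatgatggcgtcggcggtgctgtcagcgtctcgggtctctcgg
The letters searched on both strands were GCGCATGC for NRF1, CCGGAAG for the ETS factor GABPA, TCAAGGTCA for the oestrogen-related receptors (ERR) and AAGATGGCG for YY1. The Uqcrh window held the ETS letters on the opposite strand, with their first printed base at -10, counted from the start with negative positions before it, and the Cox6b1 window held them at -28. Cox6a1 held the NRF1 letters on both strands, at -162 and -160 and overlapping each other, and the ETS letters at -16. The Ndufv2 window held no match to these letters.

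Over the members, 77 windows of 72 genes could be searched, and 16 members had no window. The NRF1 letters were in 12 windows (15.6%), against 2.71% of all 32851 windows of this length. The ETS letters were in 19 (24.7%, against 8.86%), the YY1 letters in 7 (9.09%, against 1.40%) and the ERR letters in 2 (2.60%, against 0.423%). Windows of other genes above the background reference held them at 3.26%, 13%, 2.08% and 0.320%. In all, 32 member windows (41.6%) had at least 1 of the 4 motifs, against 12.5% of all windows and 17.5% of those of other genes above the reference. A match is a description of the letters and not a site in use. By complex, the ETS letters were in 4 of 31 windows of complex I, 2 of 3 of complex II, 2 of 4 of complex III, 3 of 13 of complex IV and 6 of 18 of complex V.

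Complex I, the entry point for electrons from NADH, was followed through 32 subunits. Ndufa2, a small accessory subunit of the NADH-oxidising module, had the largest difference of complex I between LPS/LPS and LPS, -1.74 (SE 0.45; limma adjusted p = 0.254). It was at 4.03, 4.34, 4.14, 4.21 and 3.67 in LPS/LPS arrays, 5.42, 5.62, 6.90 and 5.31 in LPS arrays and 6.67, 5.18, 3.94 and 4.59 in control arrays. The LPS/LPS arrays lay below every LPS array, while control replicate 3 lay within their range. The difference from LPS was -1.37 without LPS replicate 3. Ndufa6, an accessory subunit of the LYR family, differed by -1.31 (SE 0.49; limma adjusted p = 0.470) between LPS/LPS and LPS, and by -0.87 without LPS replicate 3.

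The core subunits that carry the flavin and iron-sulfur clusters had negative differences between LPS/LPS and LPS, of differing size. Ndufv1, which binds NADH and the flavin, was at 5.22, 4.98, 5.13, 5.52 and 5.17 in LPS/LPS arrays, 5.39, 6.22, 6.30 and 5.63 in LPS arrays and 6.02, 5.72, 5.12 and 5.63 in control arrays. Its difference was -0.68 (SE 0.22; limma adjusted p = 0.384) from LPS and -0.42 (SE 0.22; limma adjusted p = 0.987) from control, and the groups overlapped in both. The difference from LPS was -0.54 without LPS replicate 3. Ndufs3, a core subunit of the ubiquinone-reducing module, differed by -0.73 (SE 0.28; limma adjusted p = 0.481) from LPS and Ndufs7, an iron-sulfur subunit beside the ubiquinone site, by -0.52 (SE 0.39; limma adjusted p = 0.729), and without LPS replicate 3 these were -0.37 and -0.18. Ndufs8, its iron-sulfur neighbour, differed by -0.40 (SE 0.18; limma adjusted p = 0.547) from LPS, or -0.24 without LPS replicate 3, and by -0.16 from control. Ndufs1, the largest core subunit, was flat, with differences of -0.08 from LPS (-0.07 without LPS replicate 3) and 0.03 from control, but its probe set lay between 2.80 and 2.94 on LPS/LPS arrays, under the background reference.

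A few complex I members did not share the direction. Ndufa11, an accessory subunit of the membrane arm, was at 5.23, 5.43, 5.10, 4.80 and 5.07 in LPS/LPS arrays, 4.98, 5.18, 3.82 and 4.85 in LPS arrays and 3.87, 4.39, 4.78 and 5.00 in control arrays. Its difference of LPS/LPS from control, 0.62 (SE 0.27; limma adjusted p = 0.987), was the largest positive one of all members. LPS replicate 3 was its lowest array, and it had the lowest correlation of all members with the member median over the 13 arrays (r = -0.74, a description). A second, dimmer probe set of Ndufa11 differed by -0.30, with the opposite sign, so the direction depends on the probe set. Ndufs5, an accessory subunit, differed by -0.84 (SE 0.34; limma adjusted p = 0.714) in LPS against control, where LPS replicate 1 alone was at 3.12 and the other LPS arrays at 4.26 to 4.47. That difference was -0.91 without LPS replicate 3.

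Single arrays decided other complex I values. Ndufc2, an accessory subunit, had 8.80 in control replicate 3 and 8.02 in LPS replicate 3, where the other arrays of all groups lay at 4.81 to 5.84. Its difference of LPS/LPS from control, -1.10 (SE 0.71; limma adjusted p = 0.987), the largest negative one of complex I in that comparison, was -0.27 without that control array. Ndufa13 and Ndufa5, accessory subunits, differed from LPS by -0.81 and -0.35 in LPS/LPS, and by -0.35 and -0.01 without LPS replicate 3.

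Complex II, succinate dehydrogenase, is wholly nuclear-encoded. Sdha, the flavoprotein that oxidises succinate, was at 5.01, 4.30, 4.32, 4.79 and 4.32 in LPS/LPS arrays, 3.83, 4.75, 5.84 and 5.48 in LPS arrays and 5.54, 4.79, 4.37 and 4.75 in control arrays. Sdhb, the iron-sulfur subunit, was at 4.63, 4.80, 4.81, 4.99 and 4.30 in LPS/LPS arrays, 5.03, 4.83, 6.96 and 5.04 in LPS arrays and 4.81, 4.63, 5.17 and 5.23 in control arrays. For both genes the 3 groups overlapped, and LPS replicate 3 was the highest array. The differences of LPS/LPS from LPS were -0.43 (SE 0.35; limma adjusted p = 0.759) for Sdha and -0.76 (SE 0.35; limma adjusted p = 0.575) for Sdhb, and -0.14 and -0.26 without that array.

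The membrane anchors that bind ubiquinone were less even. Sdhc was at 3.79, 4.09, 3.75, 3.63 and 3.52 in LPS/LPS arrays, 3.63, 4.14, 5.48 and 3.94 in LPS arrays and 4.93, 4.09, 3.75 and 6.69 in control arrays. Its difference of LPS/LPS from control, -1.11 (SE 0.49; limma adjusted p = 0.987), goes with control replicates 1 and 4, which lay above all LPS/LPS arrays, and was -0.50 without control replicate 4. Sdhd was at 5.38, 5.75, 5.10, 5.29 and 4.54 in LPS/LPS arrays, 4.83, 4.93, 5.94 and 5.36 in LPS arrays and 5.26, 5.23, 5.88 and 5.29 in control arrays, with differences of -0.20 from control and -0.05 from LPS. The difference from LPS had the other sign, at 0.18, without LPS replicate 3.

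Complex III has the Rieske and cytochrome c1 subunits at its centre. Uqcrfs1, the Rieske iron-sulfur protein, differed by -0.14 (SE 0.21; limma adjusted p = 0.991) between LPS/LPS and control and by 0.06 from LPS, or 0.27 without LPS replicate 3. Cyc1, cytochrome c1, was at 5.21, 4.85, 4.84, 4.96 and 3.92 in LPS/LPS arrays, 5.26, 4.74, 6.51 and 5.05 in LPS arrays and 4.95, 4.87, 4.19 and 5.33 in control arrays, a difference of -0.08 (SE 0.35; limma adjusted p = 0.993) of LPS/LPS from control, or 0.13 without LPS/LPS replicate 5. Its LPS/LPS replicate 5 and LPS replicate 3 were the extremes of all 13 arrays. In LPS against control Cyc1 had the largest positive difference of complex III, 0.55 (SE 0.36; limma adjusted p = 0.818), or 0.18 without LPS replicate 3.

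The core proteins Uqcrc1 and Uqcrc2, which hold the matrix side of complex III together, differed by -0.76 (SE 0.30; limma adjusted p = 0.492) and -0.75 (SE 0.39; limma adjusted p = 0.616) between LPS/LPS and LPS. Without LPS replicate 3 these were -0.45 and -0.29. Uqcr11, a small accessory subunit, was the one complex III gene whose values did not peak in LPS replicate 3: it was at 5.82, 6.94, 6.17, 6.29 and 5.26 in LPS/LPS arrays, 6.21, 6.17, 6.33 and 5.96 in LPS arrays and 7.13, 6.43, 6.30 and 6.65 in control arrays. It differed by -0.53 (SE 0.27; limma adjusted p = 0.987) from control in LPS/LPS and by -0.46 (SE 0.28; limma adjusted p = 0.805) in LPS, or -0.51 without LPS replicate 3.

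Complex IV, cytochrome c oxidase, has several nuclear subunits with tissue-specific isoforms. Among the widely expressed forms, Cox4i1 was at 6.16, 4.33, 5.12, 4.65 and 4.98 in LPS/LPS arrays, 4.35, 6.23, 8.12 and 5.89 in LPS arrays and 6.77, 6.76, 5.11 and 6.53 in control arrays, and differed from control by -1.24 (SE 0.60; limma adjusted p = 0.987) in LPS/LPS. Cox6a1 was at 7.99, 5.91, 6.86, 5.99 and 5.74 in LPS/LPS arrays, 7.33, 7.99, 9.27 and 7.47 in LPS arrays and 7.92, 7.25, 7.17 and 7.31 in control arrays. The LPS/LPS group held both low and high arrays of Cox6a1, its replicate 1 reaching the level of LPS replicate 2. The difference was -1.52 (SE 0.46; limma adjusted p = 0.354) from LPS, or -1.10 without LPS replicate 3, and -0.91 (SE 0.46; limma adjusted p = 0.987) from control.

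Cox8a, the ubiquitous form of the smallest subunit, was at 6.48, 4.86, 5.44, 4.44 and 5.14 in LPS/LPS arrays, 5.52, 6.12, 7.18 and 5.65 in LPS arrays and 7.45, 6.51, 5.86 and 6.11 in control arrays. It differed by -1.21 (SE 0.43; limma adjusted p = 0.987) between LPS/LPS and control, where only LPS/LPS replicate 1 entered the control range. Cox7a2 differed by -0.20 (SE 0.54; limma adjusted p = 0.991) from control, and Cox5b, which binds zinc on the matrix side, by -0.35 (SE 0.31; limma adjusted p = 0.987). Single arrays moved both: Cox7a2 gave 0.10 without control replicate 2, and Cox5b gave -0.12 without LPS/LPS replicate 1. A second, dimmer Cox5b probe set gave -0.72.

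Of the isoforms known from other tissues, those paired here with a widely expressed form had small differences of LPS/LPS from control. Cox4i2 of lung, Cox6a2, Cox7a1 and Cox8b of heart and skeletal muscle, and Cox6b2 of testis all lay below the background reference. Their differences of LPS/LPS from control were -0.10, 0.03, 0.09, 0.27 and -0.08. Their counterparts Cox4i1, Cox6a1, Cox7a2, Cox8a and Cox6b1 gave -1.24, -0.91, -0.20, -1.21 and -1.01. Cox6b1 and Cox7a2 also had mean levels below the reference, and the difference between the 2 kinds of isoform was not tested.

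Cox7b spread widely within each group, between 1.60 and 4.72 over LPS/LPS arrays, between 2.75 and 8.41 over LPS arrays and between 1.81 and 4.91 over control arrays. Its difference in LPS against control was 1.10 (SE 1.08; limma adjusted p = 0.882), the largest positive one of all members, and -0.21 without LPS replicate 3, while a second, dimmer probe set of Cox7b gave 0.16. Cox7c had the lowest p of all members in LPS against control, a difference of -0.73 (SE 0.24; limma adjusted p = 0.590), or -0.83 without LPS replicate 3. It was at 3.28, 3.03, 2.81, 3.03 and 2.97 in LPS/LPS arrays, 2.43, 2.57, 3.01 and 2.84 in LPS arrays and 2.84, 3.64, 4.15 and 3.13 in control arrays. The groups overlapped, and all values lay below the background reference. Ndufa4 was at 4.52, 5.89, 8.58 and 5.67 in LPS arrays and differed by 0.56 from control with all 4 and -0.24 without replicate 3, and its hypoxia-inducible paralog Ndufa4l2 differed by -0.36 (SE 0.18; limma adjusted p = 0.768), or -0.38 without it. Cox7a2l, which was assigned to no complex, differed by -0.14 (SE 0.31; limma adjusted p = 0.991) in LPS/LPS against control.

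Complex V, the ATP synthase, holds its catalytic sites in the alpha and beta subunits. Atp5b, the catalytic beta subunit, was at 6.07, 5.63, 5.41, 5.76 and 5.02 in LPS/LPS arrays, 5.85, 6.93, 8.40 and 6.04 in LPS arrays and 7.34, 6.76, 5.79 and 7.27 in control arrays. Only control replicate 3 and LPS replicates 1 and 4 entered the range of the LPS/LPS arrays. The difference of LPS/LPS was -1.21 (SE 0.46; limma adjusted p = 0.987) from control and -1.23 (SE 0.46; limma adjusted p = 0.468) from LPS, or -0.70 without LPS replicate 3. Atp5a1, the alpha subunit, differed by -0.65 (SE 0.33; limma adjusted p = 0.987) from control and -0.85 (SE 0.33; limma adjusted p = 0.487) from LPS, or -0.38 without LPS replicate 3.

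Atp5l, subunit g of the membrane part, had the largest difference of all members between LPS/LPS and control. It was at 7.67, 8.15, 7.10, 4.67 and 7.64 in LPS/LPS arrays, 7.83, 8.24, 10.98 and 7.35 in LPS arrays and 9.62, 9.47, 8.06 and 8.31 in control arrays, a difference of -1.82 (SE 0.75; limma adjusted p = 0.987). LPS/LPS replicate 4 was far below the rest of its group, and LPS/LPS replicate 2 entered the control range. Without LPS/LPS replicate 4 the difference was -1.23. Atp5h, a subunit of the peripheral stalk, differed by -0.26 (SE 0.57; limma adjusted p = 0.991). Its direction was not stable, since it was 0.42 without control replicate 1 and a second, dimmer probe set gave 0.08.

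The c-ring that turns with proton flow is encoded by 3 genes for the same mature protein. Atp5g1 was at 4.14, 4.98, 5.30, 4.74 and 3.93 in LPS/LPS arrays, 5.31, 4.12, 4.43 and 3.78 in LPS arrays and 4.36, 4.62, 4.63 and 3.87 in control arrays, a difference of 0.25 (SE 0.32; limma adjusted p = 0.991). Atp5g2 and Atp5g3 differed in the other direction, by -0.48 (SE 0.31; limma adjusted p = 0.987) and -0.59 (SE 0.35; limma adjusted p = 0.987). Atp5d, a central stalk subunit, had the largest positive difference of complex V between LPS/LPS and control, 0.42 (SE 0.31; limma adjusted p = 0.987), and its LPS/LPS replicate 1 was at 6.68 and the other 4 arrays of the group at 4.96 to 5.53. Without that array it was 0.14, and a second, dimmer probe set gave 0.11. Atp5j2, subunit f, differed by 0.32 (SE 0.19; limma adjusted p = 0.676) between LPS/LPS and LPS, the largest positive one of complex V there, or 0.37 without LPS replicate 3.

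The complex I assembly factors, which build the complex but are not part of it, had medians near 0 in all 3 comparisons. All 8 lay below the background reference, where differences can be compressed, and their contrast with the subunits was not tested. Ndufaf7, a methyltransferase acting on a core subunit, averaged 3.14 ± 0.27 in LPS arrays and 3.76 ± 0.56 in control arrays (SD, n = 4 each), a difference of -0.62 (SE 0.27; limma adjusted p = 0.725), or -0.59 without LPS replicate 3. Ndufaf5, a hydroxylase acting on Ndufs7, differed by 0.47 (SE 0.22; limma adjusted p = 0.768) in LPS against control, or 0.45 without LPS replicate 3, and Ndufaf2 by 0.35 (SE 0.34; limma adjusted p = 0.987) in LPS/LPS against control. Ndufaf3 and Ndufaf8 differed by 0.30 and -0.17 there.

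The other genes of the pathway, 72 assembly factors, electron carriers, inhibitors and regulators outside the member rule, also gave 0 calls in all 3 comparisons. Their median differences were -0.03 in each of the 3 comparisons. In LPS/LPS against control, 30 were higher and 42 lower, and 0 and 2 of them had an unadjusted p under 0.05. Of all genes, 2.62% and 2.07% did. In LPS/LPS against LPS, 32 were higher and 40 lower, with 3 and 3 at an unadjusted p under 0.05 (against 4.13% and 4.49% of all genes). In LPS against control 34 were higher and 38 lower, with 0 and 1 (against 3.49% and 2.95%). When LPS replicate 3 was left out, the median was 0.03 in LPS/LPS against LPS, with 40 higher and 32 lower, and -0.10 in LPS against control, with 25 higher and 47 lower. The counts at an unadjusted p under 0.05 were then 4 and 3 in LPS/LPS against LPS (against 2.67% and 3.49% of all genes). In LPS against control they were 0 and 2 (against 3.38% and 2.43%).

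Atpif1, the inhibitor that stops complex V from running backwards, had the lowest p of these in LPS/LPS against control. It was at 6.15, 5.67, 6.29, 6.70 and 5.79 in LPS/LPS arrays, 6.07, 6.75, 8.05 and 7.12 in LPS arrays and 7.95, 7.51, 6.75 and 7.57 in control arrays. The difference was -1.32 (SE 0.35; limma adjusted p = 0.921), and all 5 LPS/LPS arrays lay below all 4 control arrays. Of all genes, 0.699% were lower without overlap in LPS/LPS against control. Cycs, cytochrome c, was at 5.63, 3.48, 3.86, 4.08 and 6.06 in LPS/LPS arrays, 5.55, 7.04, 8.05 and 6.16 in LPS arrays and 7.14, 3.91, 4.99 and 4.75 in control arrays. It had the lowest p of the electron carriers in LPS/LPS against LPS, with a difference of -2.08 (SE 0.69; limma adjusted p = 0.421), or -1.63 without LPS replicate 3.

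Esrra, a nuclear receptor that switches on respiratory genes, differed from LPS in the direction opposite to most members. It was at 5.96, 5.71, 6.06, 5.87 and 5.70 in LPS/LPS arrays, 5.54, 5.29, 5.16 and 5.36 in LPS arrays and 5.66, 5.81, 5.77 and 5.71 in control arrays. All LPS arrays lay below all arrays of both other groups. The difference was 0.52 (SE 0.12; limma adjusted p = 0.177) in LPS/LPS against LPS and -0.40 (SE 0.13; limma adjusted p = 0.590) in LPS against control. These were 0.46 and -0.34 without LPS replicate 3. Of all genes, 1.1% were higher without overlap in LPS/LPS against LPS and 1.6% lower in LPS against control. Ppargc1a, the coactivator of mitochondrial biogenesis, averaged 2.63 ± 0.32 in LPS/LPS arrays (SD, n = 5), 3.08 ± 0.71 in LPS arrays and 2.99 ± 0.38 in control arrays (SD, n = 4 each). Tfam, the transcription factor of mitochondrial DNA, averaged 3.95 ± 0.52 in LPS/LPS arrays (SD, n = 5), 3.50 ± 0.13 in LPS arrays and 3.68 ± 0.32 in control arrays (SD, n = 4 each). Both genes lay below the background reference.

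The mitochondrially encoded subunits, transcribed from the organelle's own genome, did not follow the nuclear members array by array. All 10 measured had a lower mean in LPS/LPS than in control arrays, with a median difference of -0.94, and 0 passed the threshold. Their median difference from the control mean was -0.50 in LPS replicate 3, where the nuclear members peaked, and 0.39 in LPS/LPS replicate 5, where the nuclear members were lowest. It was lowest, at -2.70, in LPS/LPS replicate 4.

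**Figure D5:**
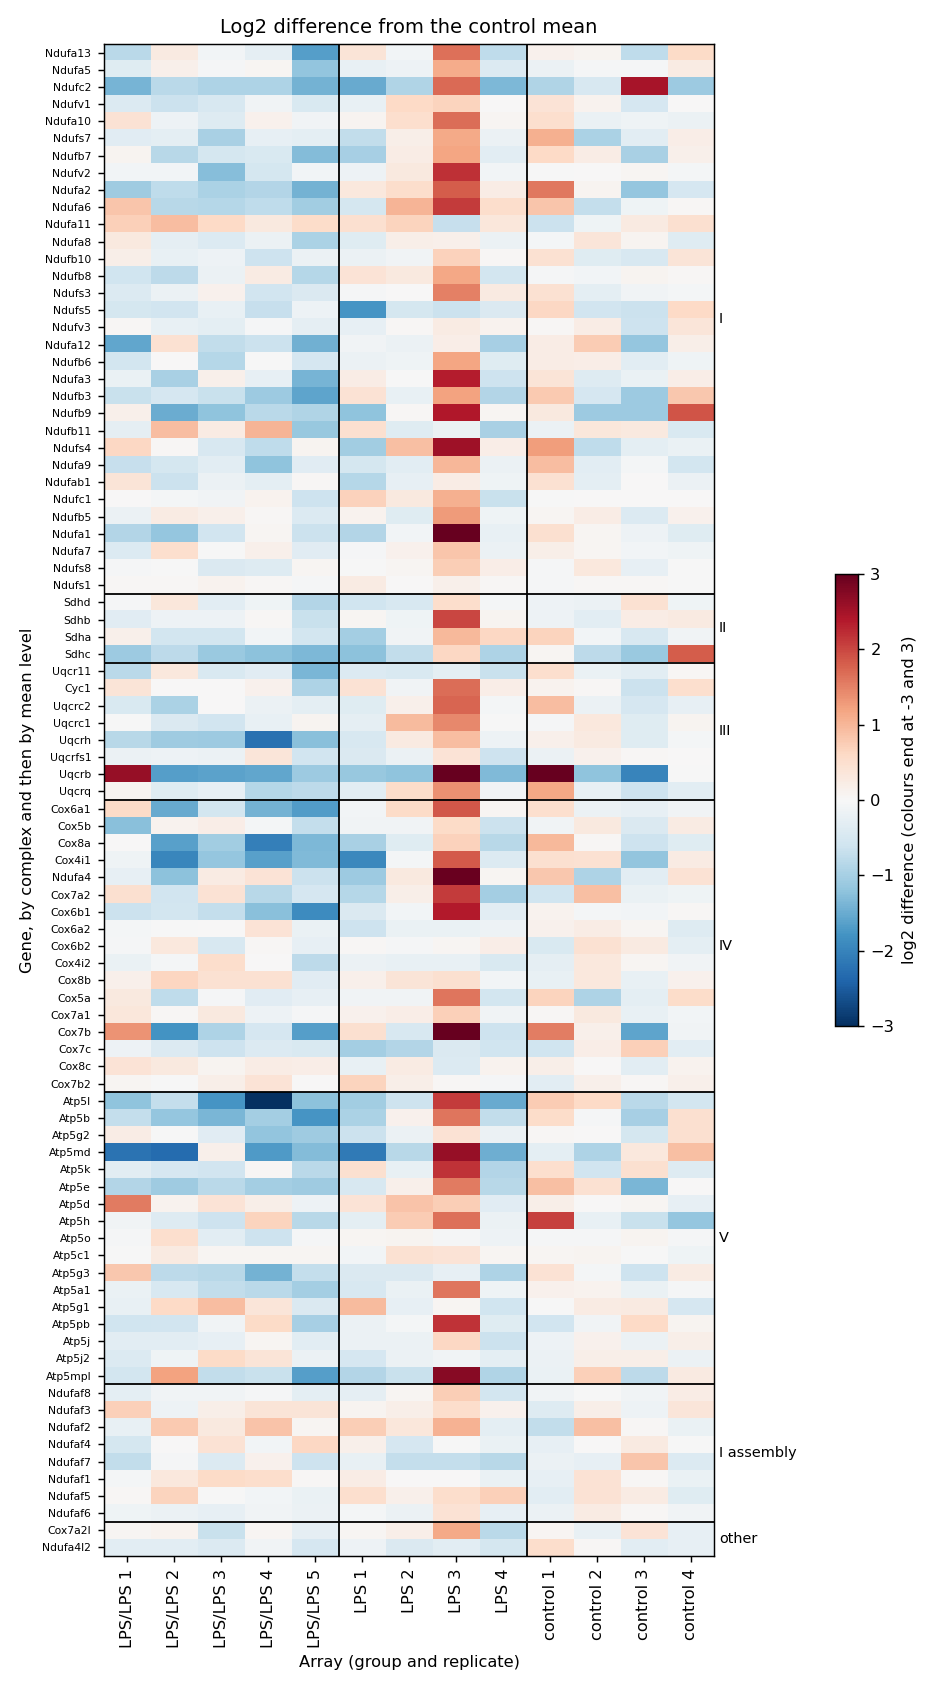
Log2 difference of each of the 88 members (rows, grouped by complex and ordered by mean level) from its control mean on each array (columns), with LPS/LPS on the left, LPS in the middle and control on the right; red is higher and blue lower, and colours end at -3 and 3. The column of LPS replicate 3 is red across complexes I, II, III, IV and V, with Ndufa11 and Cox7c among the blue exceptions.

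Members shared a pattern over arrays that LPS replicate 3 carried in large part. The median Pearson correlation between pairs of members was 0.36 over the 13 arrays and 0.15 without that array. Within complexes it was 0.48 for complexes I, II and III, 0.14 for complex IV and 0.32 for complex V, and 0.21, 0.25, 0.28, 0.11 and 0.13 without LPS replicate 3. These values are descriptions, and all points share the same arrays. The 3 non-members most like the member median were Rps3a1, a ribosomal protein gene (r = 0.973), Suclg1, a subunit of succinyl-CoA ligase in the tricarboxylic acid cycle (r = 0.971), and Suco (r = 0.957). Without LPS replicate 3 the same correlations were 0.868, 0.869 and 0.776 over 12 arrays. The mean levels of these genes, 4.44, 4.71 and 3.08, lay below the background reference. They were picked as the highest correlations over all non-members, so high values follow in part from the choice.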

How the data were processed

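Whole-transcript RNA was measured in 13 samples of S1 segments, and the groups follow the treatment labels. Per the labels' protocols, RNA was isolated with the PicoPure kit, precipitated with isopropanol and labelled by the Affymetrix WT Pico method. The values as deposited are log2 levels of 41345 probe sets. RMA (robust multi-array averaging) and Partek 6.6 are the tools that the submitters' processing notes list. The background step, the normalization between arrays and the genome are not given by any source used here. Background left in RMA values would pull differences of dim genes toward 0, and no detection calls were available.

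Gene names came from the annotation of the platform, in which 23521 probe sets carried 1 symbol, 1814 several and 16010 none. Keeping the brightest of the 1082 multiply measured genes' probe sets left 22180 genes. The lone limma fit (version 3.58.1, R 4.3.3; lmFit, eBayes) took all arrays without covariates, with two-sided p-values adjusted by Benjamini-Hochberg over all genes and a threshold of 0.05. The fit was tested on simulated data. Medians over members are descriptions without a test. Alternatives left out each array, added the replicate number or array spread as a block, and changed scaling, weights, probe set choice, moderation and the filter on dim genes.

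Members, marker and helper lists were chosen with earlier results of these data known. Named were all genes of complex II, catalytic subunits, isoform pairs, c-ring genes, per complex the 2 brightest members and those with the largest differences, members whose groups did not overlap, the helper with the lowest p per comparison, Ppargc1a and Tfam, and the 3 non-members most like the member median. Cycs, Umod, Slc12a1, Slc34a1 and Slc5a2 were picked after their values were seen. Promoter windows came from RefSeq GRCm38.p6. The number of arrays limits the precision.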

Additional observations from a re-analysis of the deposited data

Results flagged for a closer look

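In each group of 4 or 5 arrays, a named gene or a complex median was listed when its most extreme array was separated from the rest by more than Dixon's criterion allows at the 95% level. This gave 13 listings among 192 groups examined (6.77%). Many named genes were chosen for large differences on these same arrays, and the medians share genes. The share listed therefore cannot be set against a chance rate. LPS replicate 3 had 4 of the 13, all on the high side. Its member median of 0.985 above the control mean compared with -0.22 to -0.06 on the other LPS arrays, and its complex I median of 1.14 with -0.17 to 0.02. Cox6b1, an outer subunit of complex IV, was at 6.98 there, with 4.17 to 4.52 on the other LPS arrays, and Sdhb, the iron-sulfur subunit of complex II, was at 6.96, with 4.83 to 5.04.

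In LPS replicate 1 a pair of values stood out low: Ndufs5 of complex I at 3.12 and Cox6a2, the muscle isoform of complex IV, at 3.78. In the LPS/LPS group, Cyc1 of complex III was low at 3.92 in replicate 5 and Ndufs7 of complex I low at 4.21 in replicate 3. Ndufa6 of complex I was high at 5.63 in replicate 1, and the assembly factor Ndufaf5 high at 3.54 in replicate 2. Control replicate 3 had Cox4i1 of complex IV low at 5.11, with 6.53 to 6.77 on the other control arrays, Ndufc2 of complex I high at 8.80 and the complex II anchor Sdhd high at 5.88.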

How the results depend on the processing

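The count of members past the threshold stayed at 0 in all 3 comparisons under every alternative run, with 1 exception: without LPS replicate 1, 1 member (Uqcrh, limma adjusted p = 0.039) passed in LPS/LPS against LPS. In that fit 96 of 22180 genes passed in the same comparison, against 14 with all arrays. Leaving out 1 array at a time gave 0 to 1 member calls in LPS/LPS against LPS and 0 in the other comparisons. The median member difference of LPS/LPS from control ran from -0.34 to -0.21 over those fits and was -0.13 with array spread as a block and -0.019 within the narrow arrays, which hold fewer samples. The median in LPS/LPS against LPS ran from -0.64 to -0.13, and was -0.22 with array spread as a block and -0.09 within the narrow arrays. In LPS against control it ran from -0.19 to 0.26, its negative end being the fit without LPS replicate 3. An alternative chosen after seeing the data left out LPS replicate 3 and LPS/LPS replicate 5 together and gave -0.06 in LPS/LPS against LPS, -0.21 in LPS/LPS against control and -0.19 in LPS against control. The count of members lower in LPS/LPS than in control arrays at an unadjusted p under 0.05, which was 7, was 11 with quantile normalization, 14 with array weights and 15 with only the 2 groups fitted. Over all 22180 genes the lower count was 460 in the main fit and 608, 529 and 548 with these alternatives. Deviations of same-numbered arrays correlated between -0.35 and 0.22. Differently numbered arrays were not set beside them, so these values cannot tell whether the replicate numbers pair the arrays. With the replicate block, 0 members were called in each comparison, and the medians were -0.21 for LPS/LPS against control, -0.35 for LPS/LPS against LPS and 0.12 for LPS against control. Among 149 values of complex medians per comparison over the alternatives, the sign changed in 6 for LPS/LPS against control, 13 for LPS/LPS against LPS and 23 for LPS against control. The cause of these shifts was not tested. Dim signal limits 54 of the 88 members, whose mean level lay below the background reference.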

Other observations

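Ndufb2, Ndufb4, Ndufs6, Uqcr10 and Cox6c were read only by probe sets that carry more than 1 gene symbol, so they are no members and their values cannot be given to 1 gene. The brighter probe set of Ndufs6 and its near-copy Ndufs6b averaged 5.59 ± 1.32 in LPS/LPS arrays (SD, n = 5), 6.74 ± 1.09 in LPS arrays and 7.09 ± 0.33 in control arrays (SD, n = 4 each). The second Ndufs6 probe set averaged 4.69 ± 0.75, 5.38 ± 0.89 and 5.99 ± 0.41 in LPS/LPS, LPS and control arrays. The probe set of Uqcr10 and Gm6293 averaged 2.83 ± 0.49 in LPS/LPS arrays, 3.18 ± 0.37 in LPS arrays and 4.37 ± 0.81 in control arrays. These means lie below the background reference of 4.77, which control replicates 1 and 2 exceeded, at 4.81 and 5.12. The dimmer probe set of Cox6c and Gm6265 was tight in LPS/LPS arrays, at 3.94 ± 0.06, and spread in LPS arrays, at 4.93 ± 1.27, with 4.63 ± 0.40 in control arrays. Their brighter probe set averaged 4.83 ± 0.10, 5.18 ± 0.52 and 5.16 ± 0.57 in LPS/LPS, LPS and control arrays.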
